A study of Mus musculus with 48 samples.

Results

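Manganese-exposed and control daughters were compared, 6 against 6, in hippocampal RNA from female CD-1 mice, an outbred stock, at 2 months of age: daughters of dams that drank water with manganese, and daughters of dams that drank water with no added metal. The labels put these 12 libraries in the 2 groups, and they are 12 of the 48 in the study, which also holds sons and offspring exposed to lead or to lead with manganese, with 6 libraries in each of 8 groups. The manganese dams drank 2 g/L for 8 weeks, starting 2 weeks ahead of mating and ending when the pups were weaned at postnatal day 21, so the daughters met the metal through their mother and had been off it for weeks when their hippocampi were taken. The labels give no knockout, transgene or other treatment, and do not say which daughters shared a dam; p-values therefore measure the spread between libraries and not between litters. The comparison asks what maternal manganese, without lead, left in the hippocampal RNA of adult daughters.

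Manganese is an essential trace metal and a cofactor of the mitochondrial superoxide dismutase Sod2 and of glutamine synthetase, Glul, which astrocytes use to clear glutamate. It enters cells through the metal carriers Slc39a14, Slc39a8 and Slc11a2 and leaves them through the exporter Slc30a10, and in excess it is toxic to the brain. The hippocampus serves memory and social recognition, its neurons form the dentate, CA1, CA2 and CA3 fields, and its white matter is made by oligodendrocytes, which continue to myelinate after weaning.

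Poly(A) RNA was sequenced with a stranded protocol, and the deposited values are read counts per gene. The 6 manganese libraries held 11.6 to 21.5 M counts (16.1 ± 3.83 M, SD, n = 6) and the 6 control libraries 8.19 to 25.1 M (14.3 ± 6.17 M, SD, n = 6). Levels are given in CPM, counts scaled to a common library size, after edgeR's TMM scaling. Dentate granule cell markers summed to 602 to 1150 CPM in the manganese libraries and 717 to 948 CPM in the controls, and CA1 markers to 630 to 1010 and 468 to 952 CPM, so both hippocampal fields were present in every library. Several libraries stood apart in RNA that marks neighbouring tissue. A list score is the mean log2 CPM of a list's genes relative to the 12 libraries. Control 5 had the highest scores for thalamus and habenula, at 2.18, and for choroid plexus, at 2.06, and it held the pituitary transcript Gh, growth hormone, at 14.6 CPM. Manganese 1 held Gh at 11.6 CPM and Prl, prolactin, at 20.6 CPM, and manganese 5 had the lowest choroid plexus score, −1.86. Control 1 had the highest blood score, 1.59, and the lowest trend of expression with transcript length, −0.279 against −0.0264 to 0.0878 in the other controls. The pituitary genes were looked up after their values were seen, and the others did not follow Gh in control 5. Its Prl was below that of control 1, manganese 1 and manganese 5 and above the rest. Pomc, also looked up as a pituitary gene, stood at 0.461 CPM in control 5. Control 1 held Gh at 3.12, Prl at 4.72 and Pomc at 3.96 CPM, the highest Pomc of the 12 libraries. In tissue libraries, fewer cells of a type and less RNA per cell cannot be told apart.

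No gene differed between manganese-exposed and control daughters after adjustment. Of 16360 genes tested with edgeR's quasi-likelihood test, 0 passed an adjusted p of 0.05, and the smallest adjusted p was 1. Unadjusted, 424 genes had a p under 0.05, 2.59% of those tested, 194 of them higher and 230 lower with manganese, where 818 would be expected at 5%. DESeq2 also called 0 genes after adjustment and 454 at an unadjusted p under 0.05. The median standard error of a gene's log2 fold change was 0.161 and the median absolute log2 fold change 0.0872, so the usual gene moved by less than its error. The group means of mitochondrial share, of the 50 most abundant genes' share, of the length trend and of total counts did not separate the groups (exact permutation test over 924 arrangements, two-sided, adjusted p 0.72 to 0.77 for the 4 measures). The values below describe named genes of small unadjusted p and the gene groups, none of which passed the adjusted threshold. Unnamed gene models and pseudogenes were left out of the higher and lower genes described first. Among those left out, Gm16286, annotated as protein-coding, was singled out after its values were seen. It ran from 44.4 to 55.8 CPM with manganese and from 56.2 to 73.4 CPM in controls, with no overlap. Its log2 fold change was −0.31 ± 0.08 (SE), and −0.35 to −0.26 over 22 alternative settings. Its unadjusted p, 0.00017 by edgeR's quasi-likelihood test, was below that of Rtp4, 0.00037.

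The genes of smallest unadjusted p with higher values in manganese-exposed daughters included Elovl2, Plxnd1, the Notch-pathway genes Nrarp and Neurl1b, the lipid phosphatase Plpp3 and the Hedgehog transcription factor Gli3. The 12 of them had log2 fold changes of 0.25 to 0.93, and for 11 of the 12 every manganese library lay above the control mean. Elovl2, an enzyme that elongates polyunsaturated fatty acids on the way to docosahexaenoic acid, ran from 19.7 to 25.0 CPM in the manganese daughters with a median of 22.8, and from 16.7 to 19.8 CPM in the controls with a median of 18.0. The groups overlapped by a single library on each side, manganese 4 and control 2, and the log2 fold change was 0.31 ± 0.09 (SE; edgeR adjusted p 1). Plxnd1, a receptor for semaphorin guidance cues, ran from 26.9 to 43.0 CPM with manganese (median 31.6) and from 19.3 to 27.5 CPM in controls (median 23.4). Manganese 3 was the highest library and the groups again met at one library each, manganese 6 and control 3; the log2 fold change was 0.51 ± 0.16 (SE).

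Among the Notch-pathway genes, Nrarp, a Notch target that dampens Notch signalling, ran from 6.99 to 8.72 CPM with manganese (median 7.43) and from 2.65 to 7.87 CPM in controls (median 5.41). The manganese libraries were tightly grouped while the controls spread widely, with control 5 lowest and control 4 inside the manganese range. Neurl1b, a ubiquitin ligase that acts on Notch ligands, averaged 79.1 ± 12.2 CPM with manganese and 58.9 ± 10.6 CPM in controls (SD, n = 6), a log2 fold change of 0.42 ± 0.14 (SE). Plpp3, a phosphatase that degrades lysophosphatidic acid, was the one gene of the 12 whose groups did not overlap, with 370 to 424 CPM (median 394) against 282 to 364 CPM (median 329). Its log2 fold change was 0.26 ± 0.09 (SE), and over all genes tested the groups did not overlap for 14, or 0.0856%, with 4 higher (0.0244%) and 10 lower (0.0611%) under manganese.

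Fbxo30, the substrate-binding part of a ubiquitin ligase, ran from 6.81 to 8.61 CPM with manganese (median 7.25) and from 3.59 to 6.91 CPM in controls (median 5.43). Control 1 was the lowest library and only control 5 reached into the manganese range. Kdelc2, a protein O-glucosyltransferase of the endoplasmic reticulum, ran from 5.79 to 8.45 CPM (median 7.29) against 3.93 to 6.62 CPM (median 5.63), and manganese 1 and 4 lay within the range of the controls. Pard3b, a cell polarity protein, ran from 6.07 to 8.90 CPM (median 8.16) against 5.09 to 6.70 CPM (median 5.83), with manganese 3 alone inside the control range. The log2 fold changes of Fbxo30, Kdelc2 and Pard3b were 0.43 ± 0.13, 0.37 ± 0.12 and 0.44 ± 0.14 (SE). Gli3 averaged 12.5 ± 1.42 CPM against 9.55 ± 2.08 CPM in controls (SD, n = 6). Acss1, a mitochondrial enzyme that makes acetyl-CoA from acetate, averaged 45.2 ± 3.82 against 38.2 ± 3.64 CPM, and Nckap5 5.99 ± 0.622 against 4.43 ± 1.11 CPM. Kcnh4, a voltage-gated potassium channel, had the largest difference of the 12, a log2 fold change of 0.93 ± 0.33 (SE), at only 2.10 ± 1.08 CPM with manganese against 1.12 ± 0.381 CPM (SD, n = 6).

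**Figure D1:**
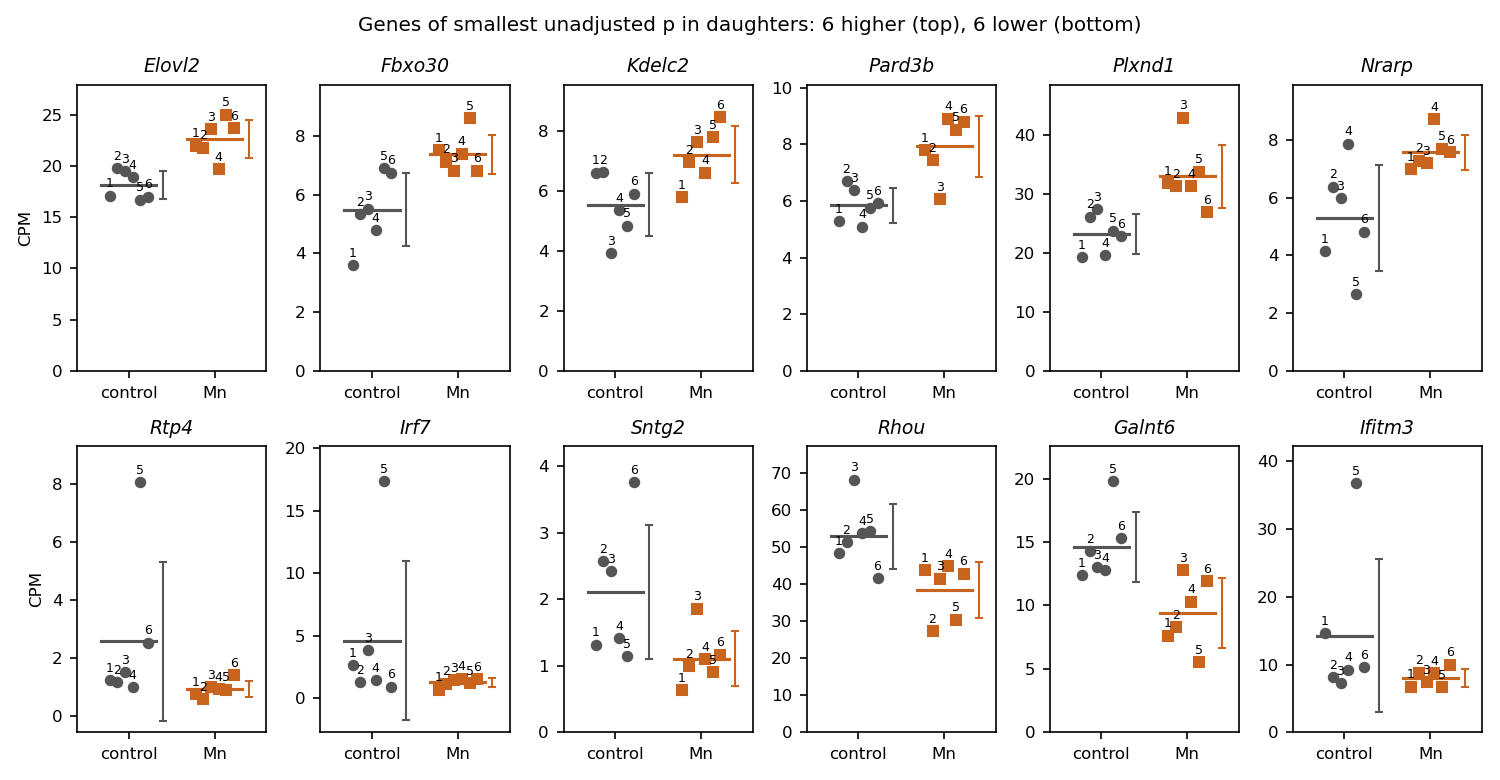
Level in CPM of 12 genes in each library, with controls as circles and manganese-exposed daughters as squares, replicate numbers above the points, a line at the group mean and a bar of ± 1 SD. In the top row the manganese libraries sit above most controls, as for Elovl2 (19.7 to 25.0 against 16.7 to 19.8); in the bottom row control 5 alone carries most of the difference in Rtp4, Irf7 and Ifitm3.

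With unnamed models left out, the genes of smallest unadjusted p with lower values held 3 interferon-induced genes, Rtp4, Irf7 and Ifitm3. They also held the myelin gene Cldn11 and the cell cycle inhibitor Cdkn1a. These 12 genes had log2 fold changes of 0.29 to 1.80 below 0, and for 11 of the 12 every manganese library lay below the control mean. Irf7, the transcription factor that amplifies type I interferon responses, ran from 0.688 to 1.56 CPM with manganese (median 1.30) and from 0.921 to 17.4 CPM in controls (median 2.03). The 17.4 CPM belonged to control 5, and no other control exceeded 3.84 CPM. The log2 fold change of Irf7 was −1.80 ± 0.47 (SE) with all libraries and −0.65 without control 5. Rtp4, a chaperone of cell surface receptors that interferon induces, ran from 0.586 to 1.41 CPM (median 0.912) against 0.997 to 8.06 CPM (median 1.36), again with control 5 highest, and its log2 fold change moved from −1.40 to −0.65 without it. Ifitm3, a membrane protein that blocks virus entry, ran from 6.71 to 9.97 CPM (median 8.10) against 7.30 to 36.7 CPM (median 9.41), and its log2 fold change moved from −0.80 to −0.28 without control 5.

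Among the other genes with lower values, Rhou changed little without that library. Rhou, a small GTPase, ran from 27.4 to 45.0 CPM with manganese (median 42.2) and from 41.6 to 68.3 CPM in controls (median 52.6). Manganese 2 and 5 were lowest and control 6 was the only control within the manganese range; the log2 fold change was −0.46 ± 0.14 (SE) and −0.45 without control 5. Sntg2, a syntrophin of the dystrophin complex, ran from 0.631 to 1.86 CPM (median 1.05) against 1.15 to 3.76 CPM (median 1.93). Manganese 3 was the highest of its group and controls 1, 4 and 5 lay below it. Galnt6, an enzyme that starts O-linked sugar chains, ran from 5.53 to 12.8 CPM (median 9.31) against 12.4 to 19.8 CPM (median 13.7). Manganese 3 alone reached the controls, manganese 5 and 1 were lowest and control 5 was highest. Without manganese 1 and 5 and control 5 the log2 fold change of Galnt6 moved from −0.62 to −0.33.

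The remaining genes with lower values were spread over several functions. Unc45a, a myosin chaperone, was tightly grouped at 27.6 ± 1.56 CPM with manganese against 33.8 ± 5.94 CPM in controls (SD, n = 6), where control 3, at 24.5 CPM, was below every manganese library. Sgf29, a reader of histone methylation in the SAGA complex, averaged 5.94 ± 0.788 against 7.83 ± 1.70 CPM. Glra3, a glycine receptor subunit, averaged 1.32 ± 0.607 against 2.32 ± 0.817 CPM, and Ube2cbp, a ubiquitin ligase, 0.654 ± 0.271 against 1.22 ± 0.411 CPM.

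Manganese 1, manganese 5 and control 5 were left out together to see what the 24 named genes owed to them. These genes had been picked by their p with all libraries in, the remaining ones included. A kept direction was therefore likely from the start and is no separate evidence for a gene. The sizes show how far each value moved. Without these 3 libraries all 12 genes with higher values kept their direction, with log2 fold changes of 0.23 to 0.99 and a median of 0.39 against 0.43 with all libraries, and 11 of the 12 were still at an unadjusted p under 0.05. The 12 genes with lower values also kept their direction, but their median moved from −0.81 to −0.45 and 7 of the 12 were still at an unadjusted p under 0.05. Cdkn1a moved further from 0, from −1.15 to −1.54, while Ifitm3 moved to −0.16 and Cldn11 from −0.45 to −0.21. Over all genes the count at an unadjusted p under 0.05 was 241 without the 3 libraries, and 129 of these were among the 424.

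**Figure D2:**
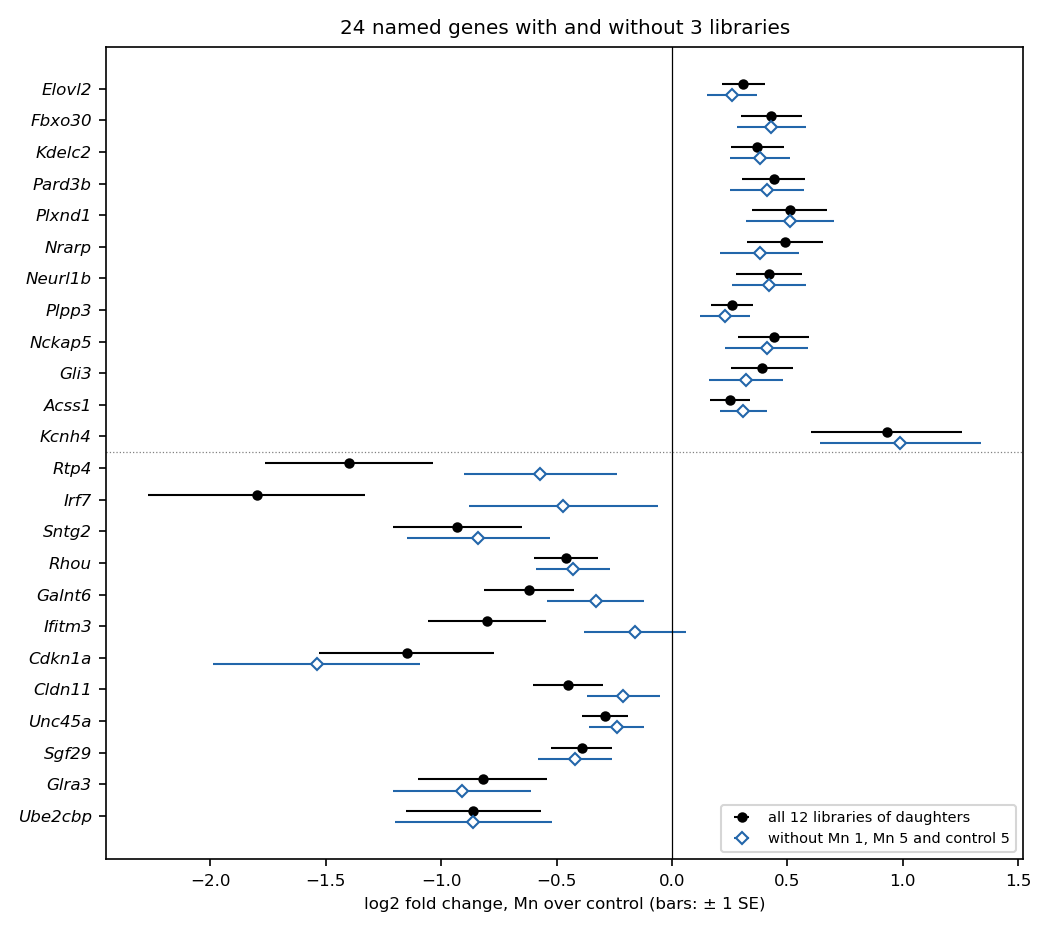
Log2 fold change of the 24 named genes, manganese over control, with bars of ± 1 SE, from all 12 libraries of daughters (black circles) and without manganese 1, manganese 5 and control 5 (open diamonds). The 12 genes in the upper rows stay between 0.23 and 0.99 without the 3 libraries, and the interferon genes Rtp4, Irf7 and Ifitm3 move toward 0. All 24 genes were picked by p with every library in.

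Genes of the interferon response and antigen presentation had lower values in manganese-exposed daughters as a group, and the difference came with a single control. Interferons act in part through the Irf factors, which bind interferon response elements in the promoters of genes such as Ifit1, Ifit3 and Isg15. Of the 16 genes of the list, all tested, 15 had a log2 fold change below 0, where 50.2% of all genes tested did, and the median was −0.39 where that of all genes was 0 to 2 decimals. At an unadjusted p under 0.05, 8 of the 16 were lower, where 1.41% of all genes tested were, and none was higher.

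The promoters of Ifit1, Ifit3 and Isg15 are printed to show the element in sequence, and these 3 genes were picked from the list with their values known. These are the 250 bases before the start of each gene from the RefSeq table on build GRCm38.p6, at chr19:34640639-34640888 on the plus strand for Ifit1, chr19:34583279-34583528 on the plus strand for Ifit3 and chr4:156200819-156201068 on the minus strand for Isg15. Capitals mark each match to GAAANNGAAA or, read on the other strand, TTTCNNTTTC.
Ifit1: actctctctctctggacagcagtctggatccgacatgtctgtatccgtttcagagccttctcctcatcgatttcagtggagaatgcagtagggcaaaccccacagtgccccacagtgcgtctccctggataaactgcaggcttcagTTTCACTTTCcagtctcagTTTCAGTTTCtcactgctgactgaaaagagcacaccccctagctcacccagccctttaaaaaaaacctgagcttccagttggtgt
Ifit3: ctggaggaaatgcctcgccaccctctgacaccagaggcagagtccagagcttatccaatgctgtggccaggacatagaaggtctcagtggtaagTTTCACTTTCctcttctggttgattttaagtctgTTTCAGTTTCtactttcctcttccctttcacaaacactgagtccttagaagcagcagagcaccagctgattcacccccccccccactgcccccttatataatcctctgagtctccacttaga
Isg15: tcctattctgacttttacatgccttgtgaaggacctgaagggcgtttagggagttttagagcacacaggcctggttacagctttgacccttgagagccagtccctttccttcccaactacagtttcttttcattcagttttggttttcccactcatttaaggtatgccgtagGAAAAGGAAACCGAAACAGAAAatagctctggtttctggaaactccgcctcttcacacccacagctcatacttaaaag
Ifit1 and Ifit3 each hold 2 separate matches, and the 3 matches of Isg15 overlap one another. Of the 12 listed genes found in the table, 5 held at least 1 match in this window and 4 at least 2, where 3.46% and 0.211% of all 27025 genes in the table did. Irf7 and Oasl2, which were also high in control 5, held no match to these letters in this window. A match is a description of the sequence and was not measured as binding here.

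Ifit1, an RNA-binding antiviral protein, ran from 0.734 to 1.94 CPM in the manganese daughters (median 1.19) and from 1.04 to 8.87 CPM in controls (median 1.72). The highest value belonged to control 5, the other 5 controls lay at 1.04 to 1.97 CPM, and every manganese library lay within or below that range. The log2 fold change of Ifit1 was −1.17 ± 0.41 (SE), and −0.37 without control 5. The same library was highest for Ifit3 at 16.6 CPM against at most 7.77 in the other controls, for the ubiquitin-like Isg15 at 6.22 against at most 1.89, and for Oasl2, an antiviral oligoadenylate synthetase-like protein, at 11.2 against at most 2.53 CPM. Bst2, which tethers budding viruses, stood at 18.2 CPM in control 5 against at most 4.53, and Usp18, which removes Isg15 from proteins, at 3.69 against at most 1.04 CPM. Ifit3 has near-identical relatives in the mouse, so reads may be split between copies. Without control 5, 0 of the 16 genes were at an unadjusted p under 0.05, 10 had values below 0 and the median was −0.06. The count of 8 lower genes was 5 without manganese 1 and 5 without manganese 4. Antigen presentation genes moved less even with it: H2-K1, a class I molecule, had a log2 fold change of −0.41 ± 0.26 (SE), the class II chain H2-Aa −0.12 ± 0.47, and the peptide transporter Tap1 0.08 ± 0.28.

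Some immune genes outside the list, chosen after their values were seen, were lower without that library too. Isg20, an interferon-induced exonuclease, had the smallest unadjusted p of all genes. It ran from 0 to 0.459 CPM with manganese and from 0.485 to 1.79 CPM in controls, with no overlap, control 1 highest and control 5 next. Its log2 fold change was −1.99 ± 0.48 (SE; edgeR adjusted p 1), and −1.84 without control 5. Trim34a, a member of the antiviral TRIM family with a close relative beside it, averaged 0.350 ± 0.159 CPM against 0.783 ± 0.367 CPM (SD, n = 6), and its log2 fold change moved from −1.16 to −0.92. H2-T22, a nonclassical class I molecule, ran from 2.05 to 2.46 CPM against 2.71 to 7.83 CPM with no overlap, and moved from −0.92 to −0.69.

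**Figure D3:**
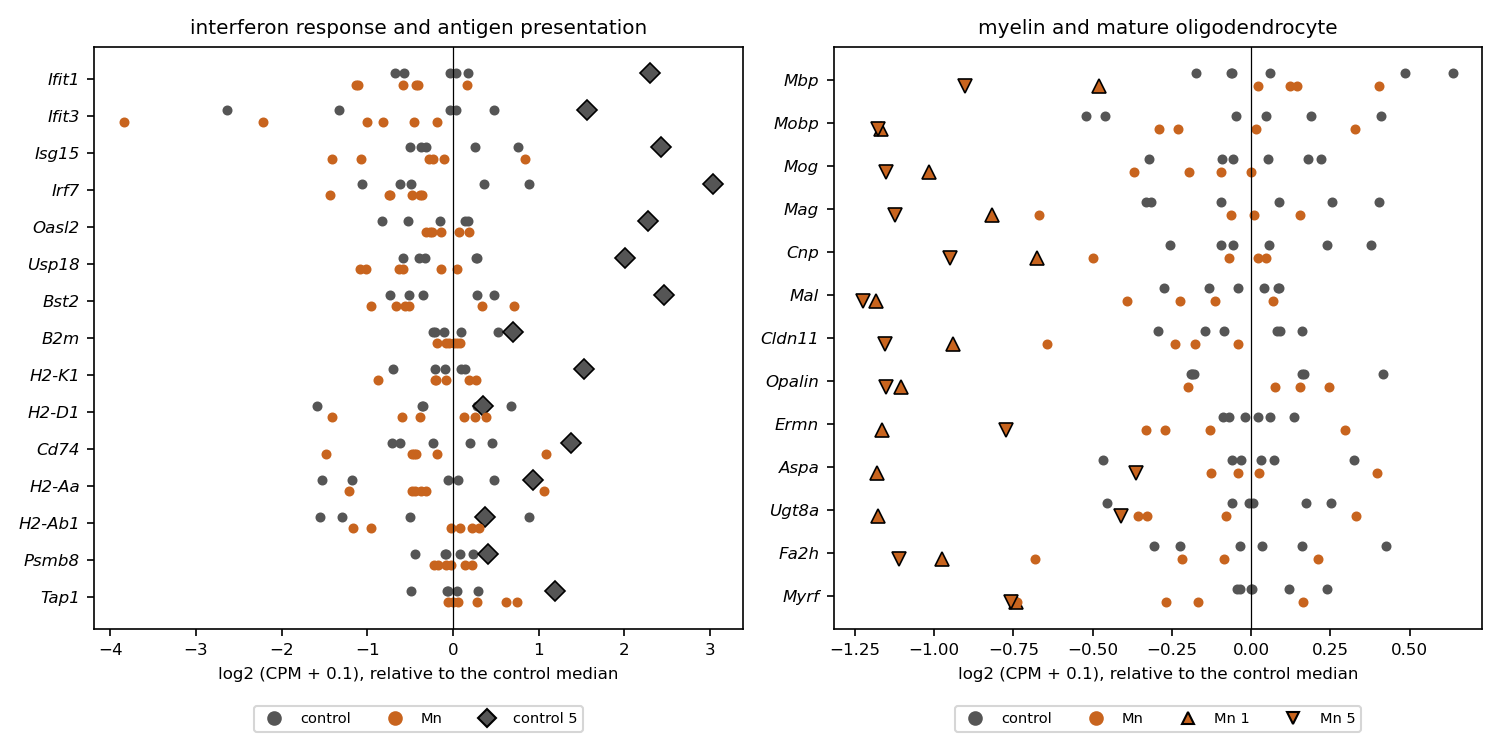
Log2 of CPM plus 0.1 for tested genes of the interferon list (left) and the myelin list (right), leaving out 1 gene of each, relative to the control median, with controls in grey and manganese-exposed daughters in orange. Control 5 (diamonds) is the highest library for Irf7, Ifit1 and most other interferon genes but not for H2-D1, H2-Aa or H2-Ab1, and manganese 1 and 5 (triangles) are the lowest libraries for most myelin genes.

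Myelin genes had lower values in manganese-exposed daughters, and 2 libraries carried the difference. All 14 genes of the list, which covers the myelin sheath proteins, the enzymes of myelin lipids and the transcription factor Myrf, had a log2 fold change below 0, where 50.2% of all genes tested did. The median was −0.36, and 7 of the 14 were lower at an unadjusted p under 0.05, where 1.41% of all genes tested were. Cldn11, the tight junction protein of the sheath, ran from 92.2 to 199 CPM with manganese (median 153.0) and from 168 to 230 CPM in controls (median 205). Manganese 5, at 92.2 CPM, and manganese 1, at 107, were lowest, manganese 2 stood at 131 CPM, and manganese 3, 4 and 6 lay among the controls. The log2 fold change of Cldn11 was −0.45 ± 0.15 (SE; edgeR adjusted p 1).

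The pattern recurred across the sheath genes. Mog, on the outer surface of the sheath, stood at 39.3 and 35.8 CPM in manganese 1 and 5, against 61.5 to 79.6 CPM in the other 4 manganese libraries and 63.6 to 92.6 CPM in controls. Mag, which faces the axon, stood at 104 and 84.3 CPM against 116 to 205 and 146 to 243 CPM. For Mog the other 4 manganese libraries overlapped the controls over most of their range. Myrf, which switches on myelin genes, ran from 45.9 to 87.0 CPM with manganese against 75.2 to 91.7 CPM in controls, and here manganese 1 and 5 and another library stood at 46.4, 45.9 and 46.5 CPM; its log2 fold change was −0.42 ± 0.16 (SE). Cnp, an enzyme of the sheath's cytoplasm, had a log2 fold change of −0.37 ± 0.15 (SE), Mbp −0.23 ± 0.24, and Aspa, which breaks down N-acetylaspartate, −0.14 ± 0.24.

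The summed level of the 14 myelin genes was 5500 and 4760 CPM in manganese 1 and 5, 8340 to 11300 CPM in the other 4 manganese libraries and 8190 to 12100 CPM in the controls. Without manganese 1 and 5 the median of the list was −0.11, with 10 of 14 genes below 0 and 0 at an unadjusted p under 0.05. Leaving out manganese 1 alone gave a median of −0.26 with 2 genes at that threshold, and leaving out manganese 5 alone −0.25 with 2. Leaving out control 1 or control 5 gave a median of −0.33 each, with 4 genes at that threshold in each case. The genes of oligodendrocyte precursors went the same way but less far, with 9 of 10 below 0, a median of −0.23 and none at an unadjusted p under 0.05. The precursor receptor Pdgfra was the 1 gene of the 10 above 0, with a log2 fold change of 0.07 ± 0.11 (SE). It ran from 58.3 to 78.4 CPM with manganese and from 49.3 to 73.6 CPM in controls. The lowest precursor scores were those of manganese 1 and 5, −0.3 and −0.23. Manganese 1 and 5 also had the highest dentate granule cell scores, 0.45 and 0.36. How much white matter or granule layer each dissection held, and its part in the myelin values, was not tested.

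Markers of the thalamus and habenula, which lie beside the hippocampus, had lower values in manganese-exposed daughters for all 17 genes, where 50.2% of all genes tested were below 0. The median was −0.76, and 4 were lower at an unadjusted p under 0.05, where 1.41% of all genes tested were. The scores of controls 4, 5 and 6 were 0.61, 2.18 and 1.13 and that of manganese 4 was 0.77, while those of the other 8 libraries lay between −1.02 and 0.12. Pou4f1, the transcription factor that marks the medial habenula, stood at 19.2 CPM in control 5, at most 6.21 CPM in the other controls and at most 1.06 CPM with manganese. Chat, which makes acetylcholine, stood at 4.84 CPM in control 5 and at most 0.921 CPM elsewhere, Slc5a7, the choline transporter, at 10.8 against at most 3.84, and Slc18a3, which loads acetylcholine into vesicles, at 3.69 against at most 0.767 CPM. These 3 of the 11 acetylcholine genes tested were lower at an unadjusted p under 0.05, again beside 1.41% of all genes, and they were high where habenular Pou4f1 was high. The muscarinic receptor Chrm1, a hippocampal gene, had a log2 fold change of 0.11 ± 0.18 (SE). Without control 5 the median of the thalamus and habenula list was −0.31 (−1.15 without manganese 4), that of the acetylcholine list −0.06, and none of their genes was at an unadjusted p under 0.05. Choroid plexus genes spread more between libraries than between groups, from a summed 191 CPM in manganese 5 to 3890 CPM in control 5, and their median moved from −0.31 to 0.40 without control 5.

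**Figure D4:**
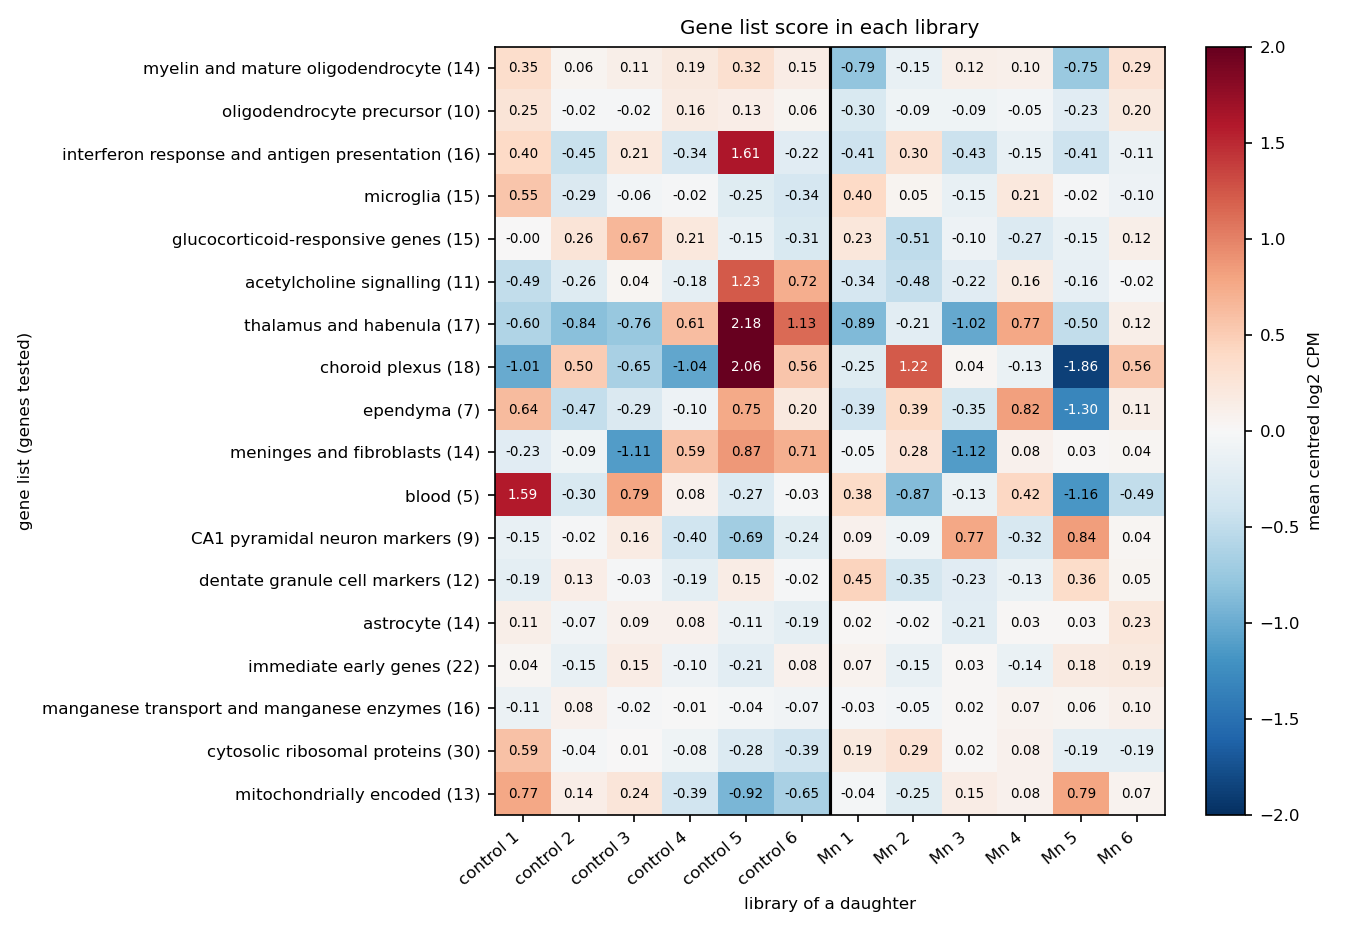
Score of 18 gene lists in each library, as the mean log2 CPM of the list's tested genes relative to the 12 libraries, with the number of genes in brackets. Control 5 is high for interferon (1.61), thalamus and habenula (2.18) and choroid plexus genes (2.06), manganese 1 and 5 are low for myelin genes (−0.79 and −0.75), and control 3 is high for glucocorticoid-responsive genes (0.67).

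Of 15 glucocorticoid-responsive genes, 5 were lower at an unadjusted p under 0.05, where 1.41% of all genes tested were, and the count varied with the libraries left out. Corticosterone, the stress hormone, raises many of these genes through its receptor Nr3c1, which is itself in the list. Cdkn1a, which halts the cell cycle, ran from 5.28 to 16.3 CPM with manganese (median 7.92) and from 5.98 to 43.2 CPM in controls (median 18.0). Control 3 was highest at 43.2 CPM, control 6 was as low as the lowest manganese libraries, and the log2 fold change was −1.15 ± 0.38 (SE; edgeR adjusted p 1). Plin4, a lipid droplet protein, ran from 3.85 to 15.8 CPM (median 8.22) against 5.99 to 45.4 CPM (median 11.6), with control 3 again highest. The kinases Pdk4, which restrains glucose oxidation, and Sgk1, which regulates ion transport, had log2 fold changes of −0.55 ± 0.23 and −0.56 ± 0.27 (SE), and the sulfotransferase Sult1a1 −0.48 ± 0.22. Other genes of the list were not at that threshold, among them the receptor chaperone Fkbp5 at −0.21 ± 0.18, the clock gene Per1 at 0.01 ± 0.16 and Nr3c1 itself at 0.10 ± 0.12. The list as a whole had 10 of 15 genes below 0, where 50.2% of all genes tested were, and a median of −0.12. Without control 3, 1 gene was lower and 1 higher at that threshold, and Cdkn1a, Plin4 and Pdk4 stood at −0.78, −0.44 and −0.37. The count of lower genes was 2 without manganese 5, 3 without control 2, control 4, manganese 2 or manganese 4, each left out alone, and 4 without control 5. Without manganese 1 and 5 together 3 genes were lower and 1 higher, and without manganese 1, manganese 5 and control 5 together 5 were lower. The median ran from −0.22 to −0.07 over the libraries left out one at a time and was −0.25 without those 3.

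Microglial genes had higher values for 11 of 15, where 49.8% of all genes tested did, with a median of 0.17. Cx3cr1, the receptor through which neurons restrain microglia, averaged 69.9 ± 5.98 CPM against 57.9 ± 7.37 CPM (SD, n = 6), a log2 fold change of 0.27 ± 0.12 (SE), and the lectin Siglech had the same log2 fold change, 0.27 ± 0.13. These 2 were higher at an unadjusted p under 0.05, where 1.19% of all genes tested were. Control 1 had the highest microglial score, 0.55, together with the highest blood score. Without control 1 all 15 genes were above 0, 6 were at an unadjusted p under 0.05 and the median was 0.32. Without manganese 1, whose score of 0.40 was the next highest, the median was 0.11 and 0 genes were at that threshold, as was also so without control 2, control 5, control 6 or manganese 4. The complement genes C1qa, C1qb and C1qc, at −0.17, −0.09 and −0.08 with all libraries, were among the 4 genes below 0.

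Among the markers of the hippocampal fields, Lefty1 alone was at an unadjusted p under 0.05. CA1 markers had higher values for 8 of 9 genes, where 49.8% of all genes tested did, with a median of 0.27 that became 0.16 without control 5 and 0.06 without manganese 1, manganese 5 and control 5; Wfs1, a membrane protein of the endoplasmic reticulum, had a log2 fold change of 0.41 ± 0.35 (SE). Lefty1, a signalling inhibitor listed here as a CA1 marker, was at 6.14 and 6.98 CPM in manganese 3 and 5 and at 0 in the other 4 manganese libraries, with a single count over the 6 controls. It was above 1 CPM in 3 of 6 female lead, 4 of 6 male lead and 2 of 6 male manganese libraries too. With both metals it was so in 1 of 6 female and 1 of 6 male libraries, and it was so in 0 of 6 male controls. Dentate markers had a median of 0.10, CA2 and CA3 markers −0.10, mossy cell markers −0.28 and interneuron markers 0.02, with 0 genes at an unadjusted p under 0.05 in each of these 4 lists. The dentate median was 0.01 without manganese 1, −0.02 without manganese 5 and −0.16 without both, when 10 of the 12 genes were below 0. The mossy cell median was −0.10 without control 5 and −0.04 without manganese 1, manganese 5 and control 5. Over the libraries left out one at a time the CA2 and CA3 median ran from −0.21 to −0.07 and the interneuron median from −0.05 to 0.04. Genes of adult neurogenesis had a median of −0.04 that became −0.14 without manganese 5 and −0.25 without manganese 1 and 5. Of its 14 genes tested, 1 was lower at an unadjusted p under 0.05, where 1.41% of all genes tested were. That gene is also in the thalamus and habenula list, where no gene was at that threshold without control 5. Dcx, a protein of young neurons, stood at 0.16 ± 0.22 (SE) and the proliferation gene Top2a at −0.51 ± 0.26.

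Genes that carry manganese or use it had no member at an unadjusted p under 0.05 among 16 tested; 11 were above 0, where 49.8% of all genes tested were, and the median was 0.08. Slc30a10, the exporter, ran from 13.8 to 20.5 CPM with manganese (median 16.5) and from 9.53 to 19.2 CPM in controls (median 14.2). The groups overlapped in part. Control 4 stood at 19.2 CPM and the other controls at no more than 14.7 CPM, which manganese 3, 4, 5 and 6 exceeded. The log2 fold change of 0.22 had a 95% interval of −0.07 to 0.50. Slc39a14 had 40.8 ± 5.61 against 41.5 ± 3.67 CPM (SD, n = 6) and an interval of −0.25 to 0.20, and Slc39a8 an interval of −0.15 to 0.45. Slc11a2, the divalent metal carrier, came nearest, with 28.9 to 33.5 CPM against 24.3 to 30.0 CPM, every manganese library above the control mean and an interval of −0.01 to 0.35. Sod2 averaged 183.8 ± 21.7 against 173.0 ± 19.8 CPM, with an interval of −0.08 to 0.26. Glul averaged 1889 ± 354.8 against 2240 ± 495.6 CPM, with an interval of −0.52 to 0.02. These intervals leave room for changes of the size of their bounds, and a p that misses the threshold does not show that the levels were alike. The iron exporter Slc40a1 stood at 0.24 ± 0.13 (SE), the transferrin receptor Tfrc at 0.28 ± 0.20 and transferrin, Trf, which oligodendrocytes make, at −0.32 ± 0.18, the last becoming 0.01 without manganese 1, manganese 5 and control 5.

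Genes tied to social behaviour and activity had no member at an unadjusted p under 0.05. Oxtr, the oxytocin receptor, ran from 5.89 to 8.52 CPM with manganese (median 7.18) and from 4.72 to 10.7 CPM in controls (median 6.37), with the manganese libraries inside the control range. Its log2 fold change was 0 to 2 decimals, with an interval of −0.47 to 0.46. Avpr1b, the vasopressin receptor of CA2, averaged 0.822 ± 0.654 against 1.18 ± 0.488 CPM (SD, n = 6), a log2 fold change of −0.49 with an interval of −1.36 to 0.38, and Avpr1a had too few counts to be tested. The 12 tested genes of the oxytocin, vasopressin and social peptide list ran from −0.49 to 0.36, with a median of −0.02. Of 22 immediate early genes, which neurons switch on when active, 19 were above 0, where 49.8% of all genes tested were, with a median of 0.05. That count was 12 without manganese 5 and 12 without control 5, with medians of 0.01 and 0.02. It was 10 without manganese 1 and 5 and 9 without those and control 5, with medians of −0.03 and −0.07. Fos stood at −0.09 with an interval of −0.67 to 0.48. Bdnf, the neurotrophin, stood at 0.09 with an interval of −0.34 to 0.53. The metallothioneins Mt1 and Mt2, which bind zinc and other metals, stood at −0.11 and −0.07. Ionotropic glutamate receptors had a median of 0.06, GABA genes 0.05, antioxidant genes −0.01 and genes of the unfolded protein response −0.07, with 0 genes at an unadjusted p under 0.05 in any of these 4. Leaving out 1 library changed the sign of the GABA (−0.02 to 0.08), antioxidant (−0.03 to 0.03) and unfolded protein medians (−0.14 to 0.03). Over all 39 lists, 29 had no such gene and 0 had a gene past the adjusted threshold.

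A few genes were well detected in some animals and near 0 in others, and were chosen after their values were seen. Gm9008 stood at 1.90 to 5.18 CPM in 5 of 6 controls, at 0.0944 CPM in control 1 and at no more than 0.0906 CPM in any manganese library, where the 6 libraries together held 4 counts. Its log2 fold change was −5.58 ± 1.57 (SE; edgeR adjusted p 1), and in a fit of the 12 libraries of daughters alone it was the single gene to pass, with an adjusted p of 0.024. It was above 1 CPM in 5 of 6 male controls, 2 of 6 male manganese libraries, 3 of 6 female lead libraries and 2 of 6 female libraries with both metals, so each treatment group held animals with and without it except the manganese daughters. Pcdhgb8, a protocadherin of the clustered family annotated as a polymorphic pseudogene, stood at 7.52 to 9.79 CPM in controls 2, 5 and 6. The other controls held at most 0.63 CPM and every manganese library at most 0.645 CPM. Pcdhgb8 was above 1 CPM in 1 of 6 male controls, 0 of 6 male manganese and 1 of 6 male lead libraries. With both metals it was so in 3 of 6 male and 1 of 6 female libraries, and with lead in 3 of 6 female libraries. Gm8515, annotated as a processed pseudogene, went the other way, at 2.85 to 3.78 CPM in manganese 1, 3 and 5, at no more than 0.367 CPM in the other 3 and at no more than 0.283 CPM in controls. Gm8515 was above 1 CPM in 2 of 6 male manganese libraries and in 1 of 6 male libraries with both metals. It was so in 0 of 6 libraries of the male controls, of each lead group and of the daughters with both metals. Genotypes and litters of these outbred mice are not given in the labels, and their part in such patterns was not tested.

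In sons, whose control and manganese libraries are separate from those of the daughters, 0 genes passed the adjusted threshold for manganese and 314, or 1.92%, were at an unadjusted p under 0.05. The labels do not say whether sons and daughters shared dams, so separate libraries need not be separate litters. Of the 12 genes with higher values in daughters 9 were also above 0 in sons, with a median of 0.08, and of the 12 with lower values 10 were below 0, with a median of −0.13; of all genes tested 48.2% were above 0 and 51.8% below 0 in sons. Plxnd1 and Neurl1b stood at 0.31 and 0.27 in sons and Elovl2 at 0.09. Fbxo30, Pard3b and Nrarp lay at −0.01, −0.01 and −0.07 in sons, and their differences between the sexes, 0.44, 0.44 and 0.56 on the log2 scale, were not past the adjusted threshold (edgeR adjusted p 1). The test of the difference in manganese effect between daughters and sons called 0 genes, with 138, or 0.844%, at an unadjusted p under 0.05. Across the 16360 genes the log2 fold changes in daughters and sons had a Pearson r of 0.33 and a Spearman rho of 0.30, a description over genes that are not independent. Myelin genes had a median of 0.02 in sons and interferon genes 0.02, against −0.36 and −0.39 in daughters. The daughters' myelin median was −0.11 without manganese 1 and 5, and their interferon median was −0.06 without control 5. Thalamus and habenula genes had a median of −0.73 in sons and −0.76 in daughters, the latter −0.31 without control 5 and −1.15 without manganese 4. Meningeal genes had medians of −0.46 and −0.36, the last running from −0.52 to −0.17 over the daughters left out one at a time.

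When manganese was added to lead, the daughters of the lead group being the reference and no library shared with the comparison above, 0 genes passed and 607, or 3.71%, were at an unadjusted p under 0.05. Of the 12 genes with higher values under manganese alone, 10 were above 0 on top of lead, with a median of 0.18. Gli3, Pard3b and Fbxo30 stood at 0.29, 0.28 and 0.23 there, and Plxnd1 at −0.14. Of the 12 with lower values, 7 were below 0, with a median of −0.02; of all genes tested 48.9% were above and 51.1% below 0. Cdkn1a stood at −0.44 and Plin4 at −1.02, while Irf7 stood at 0.48 and Galnt6 at 0.29. Interferon genes had a median of 0.42 on top of lead, thalamus and habenula genes 0.71 and myelin genes 0.06. The test of the difference between the 2 manganese effects called 0 genes, with 519, or 3.17%, at an unadjusted p under 0.05, among them 9 of the 16 interferon genes. That test includes control 5, without which the interferon median under manganese alone was −0.06. On top of lead itself, 2 of the 16 interferon genes were at an unadjusted p under 0.05, where 3.71% of all genes tested were. Across genes the 2 manganese effects had a Pearson r of −0.071.

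**Figure D5:**
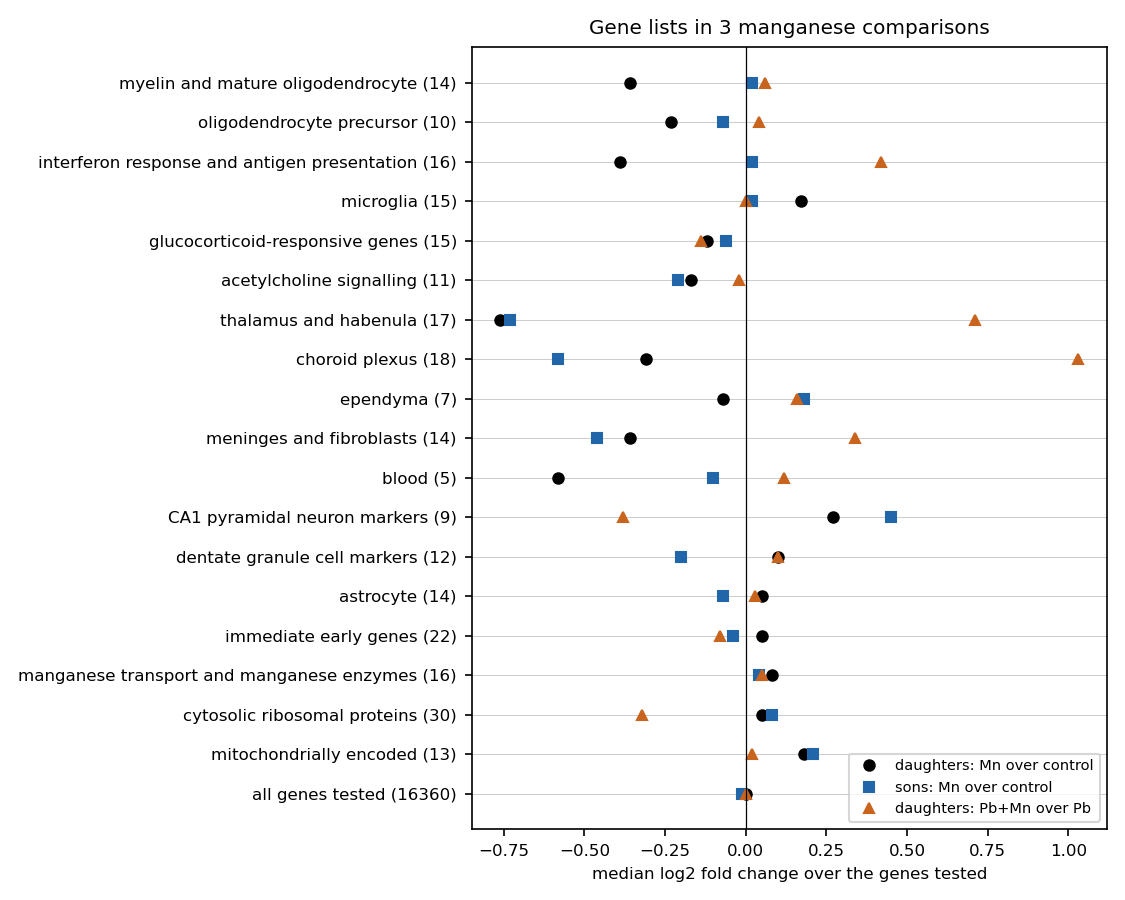
Median log2 fold change of 18 gene lists and of all genes tested for manganese in daughters (circles), manganese in sons (squares) and manganese on top of lead in daughters (triangles), with the number of genes in brackets. Myelin genes are at −0.36 in daughters and at 0.02 and 0.06 in the other 2 comparisons, and thalamus and habenula genes are at −0.76, −0.73 and 0.71. In daughters the myelin median was −0.11 without manganese 1 and 5, and the thalamus and habenula median −0.31 without control 5.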

How the data were processed

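Hippocampal RNA of 48 mice was sequenced, and the authors deposited unnormalized read counts per gene. The submitters' processing notes name build GRCm39, STAR 2.7.10b and featureCounts 2.0.6, besides Trim Galore 0.6.9, edgeR, limma and R 4.4.2; the strand and multi-mapping settings of counting are not given in the sources used here. Gene IDs were given symbols from the reference table (51884 of 57126 IDs, 99.52% of counts); 131 IDs that shared a symbol stayed IDs.

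From the counts, TMM factors, filterByExpr and edgeR 4.0.16 (R 4.3.3) quasi-likelihood F tests were computed in 1 fit of all 48 libraries with a term per group, two-sided, with Benjamini-Hochberg adjustment over 16360 genes. SE is |log2 fold change| over the square root of the F statistic, and 95% intervals are ± 1.96 SE. Log2 CPM used a prior count of 2. The script was tested on simulated data. Every pair of libraries within a group differed beyond sampling noise (chi-square over its degrees of freedom 10 or more), so none was counted as a repeat. The depth of each library limits low genes: the shallowest of the 12 held 8.19 M counts. Daughters were numbered 1 to 6 in each group; same-numbered libraries did not deviate together, so no pairing was used. Alternatives were other size factors, no filter, DESeq2 1.42.0, limma 3.58.1 voom, a transcript length covariate, the 2 groups alone and libraries left out.

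With fewer than 10 genes past the threshold, the genes named were the 12 higher and 12 lower of smallest unadjusted p with mean log2 CPM of at least 0, leaving out unnamed models and pseudogenes, plus up to 3 genes of each list at an unadjusted p under 0.05 and fixed genes of manganese handling and social behaviour; further list genes are given to describe their list. The comparison and the lists were chosen with earlier results of these data known. Promoter sequences are RefSeq's on GRCm38.p6; no coordinates of that build were joined to the counts. A few list genes count in their lists but are not reported here by name.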

Additional observations from a re-analysis of the deposited data

Results flagged for a closer look

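Within each group of 6 daughters, 216 sets of values were examined for a library standing apart from the other 5, on the log scale for genes. In 18 a library did so, where chance gives about 1 in 20 for unselected sets, or 11. Many of the genes had been picked by their values in these same libraries, so 18 against 11 cannot show an excess. Several genes were high in control 5: Ifit1 at 8.87 CPM against 1.04 to 1.97 in the other controls, Usp18 at 3.69 against 0.525 to 1.04, and the metal carrier Slc39a8 at 6.22 against 3.59 to 4.36. Snrnp70, a splicing protein, was also highest in control 5, at 91.9 CPM against 82.7 to 85.8, and so was the striatum list, with a score of 0.33 against −0.09 to 0.06. Control 1 stood apart in 5 list scores: heme synthesis at 0.21 (others −0.05 to 0.01), ionotropic glutamate receptors at −0.34 (−0.02 to 0.08), GABA genes at −0.33 (−0.04 to 0.08), microglia at 0.55 (−0.34 to −0.02) and sex-linked genes at −0.41 (−0.04 to 0.09). It was also highest for ENSMUSG00000121069.1, at 2.17 CPM against 0.562 to 0.727, and lowest for Gm9008, at 0.0944 CPM against 1.90 to 5.18. Control 2 held the single Lefty1 count of the controls, 0.0404 CPM. Among the manganese daughters, Irf7 was lowest in manganese 1, at 0.688 CPM against 1.17 to 1.56. Sgf29 was highest in manganese 4, at 7.48 against 5.44 to 6.08 CPM, and ENSMUSG00000121795.1 in manganese 2, at 17.3 against 9.06 to 11.4 CPM. The circadian clock list was lowest in manganese 2, with a score of −0.21 against 0.06 to 0.19, and the meningeal list in manganese 3, at −1.12 against −0.05 to 0.28.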

How the results depend on the processing

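The count of 0 genes past an adjusted p of 0.05 held under every alternative tried except a fit of the 2 groups alone, which called 1 gene, Gm9008. The count of 424 genes at an unadjusted p under 0.05 became 1370 with no filter on low counts, where 36923 genes were tested. It was 847 with voom and library quality weights and 663 with the transcript length trend as a covariate. With manganese 1, manganese 5 and control 5 left out, and so with fewer samples, it was 241. The causes of these changes were not tested. Leaving out 1 library at a time gave 288, without control 5, to 650, without control 3. With replicate number as a block, 472 genes were at that threshold and 0 passed after adjustment; correlations of same-numbered libraries ran from −0.11 to 0.21, 2 of 6 correlated best with their own number, and the number is no more than a label. Without manganese 1 and 5, chosen after the data were seen, the count was 299. Both interaction tests stayed at 0 genes throughout. Sign changed for genes near 0. Mt1 became 0.07 and Mt2 0.12 with voom quality weights, and Mt2 0.01 with the length covariate. Oxtr became 0 with other size factors and with DESeq2. Without manganese 1, 5 and control 5, Fos became 0.14 and Bdnf −0.16, and without manganese 1 and 5 alone 0.11 and −0.09. Leaving out 1 library changed the sign of Slc39a14 (range −0.07 to 0.04), Mt1 (−0.22 to 0.04), Mt2 (−0.19 to 0.04), Oxtr (−0.09 to 0.15), Fos (−0.20 to 0.08) and Bdnf (−0.08 to 0.19). At these depths, genes under 1 CPM rest on few reads, and dams are not labelled, so litter was not tested.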
